A study of Mus musculus with 13 samples.

Results

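The 10 hypoxia-response genes described here are Vegfa, Adm, Hk2, Pfkfb3, Pgk1, Ldha, Bnip3, Egln3, Ndrg1 and Ankrd37. They were picked by symbol as known targets of the hypoxia-inducible factors (HIF), out of the 48795 genes of the count table. The rule that chose them uses no value of theirs, but earlier results of these data were known when it was made. The question put to them was whether the induction of Car9, a carbonic anhydrase gene widely used as a hypoxia marker, came with a wider hypoxia response. RNA was sequenced from 13 mice at postnatal day 11, each giving its right hemisphere after removal of the cerebellum and olfactory bulb. The 5 control mice had the genotype NexCre -/- YAP5SAnls +/-, so they carried the transgene without Cre. The 5 nlsYAP5SA mice had the genotype NexCre +/- YAP5SAnls +/- and were littermates of the controls. The 3 C57BL/6 mice were wild type, carried neither allele and were not littermates of the others. The strain background of all groups is given as C57BL/6J.

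The transgene codes for a form of YAP1, the transcriptional co-activator restrained by the Hippo pathway, that cannot be inhibited by phosphorylation and is directed to the nucleus. A STOP cassette between loxP sites keeps it silent until Cre is present. Cre came from the NEX (NeuroD6) locus, which is active in the lineage of cortical and hippocampal pyramidal neurons and their precursors. The mutant mice form ependymoma-like tumours beside the ventricles, and a whole hemisphere mixes tumour with other brain tissue. In such bulk RNA, fewer cells of a type and less RNA per cell cannot be told apart.

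HIF is a dimer of an oxygen-labile alpha subunit and a stable beta subunit. At normal oxygen, prolyl hydroxylases mark the alpha subunit for destruction by the von Hippel-Lindau protein, and when oxygen falls the dimer accumulates and binds short hypoxia-response elements near its targets. Those targets raise glucose uptake and glycolysis, adjust mitochondria and pH, and signal to blood vessels. The alpha subunits are controlled mainly at the level of protein, which RNA counts do not measure.

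The sequence that HIF reads has the core ACGTG or GCGTG, which appears as CACGT or CACGC when it lies on the other strand. It was looked for in the 250 bases before the most upstream RefSeq start of each gene (GRCm38.p6 promoter table, both strands), because it is the feature by which these genes are held to be one group. The table held 9 of the 10 members, all but Ndrg1. A core was found before the start of 8 of these 9 (88.9%), against 38.6% of 27025 promoters in the table and 55.0% of the 11959 promoters of genes tested between nlsYAP5SA and control mice. Vegfa had none in this window. The core nearest to the start is shown for Car9 and the 8 members, 5′ to 3′ on the strand of the gene, with 15 bases on each side where the start site allows. Capitals mark bases that belong to any match of the core. The start used for Pfkfb3, Ldha, Bnip3, Ankrd37 and Car9 lies inside the limits that GENCODE M21 gives the gene on GRCm38. The windows shown for Pfkfb3, Ldha, Ankrd37 and Car9 therefore lie inside the annotated gene, and that of Bnip3 lies just outside it.

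Car9, chr4:43506993-43507025, plus strand: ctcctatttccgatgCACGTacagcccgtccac
Adm, chr7:110627588-110627622, plus strand: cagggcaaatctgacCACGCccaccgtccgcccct
Hk2, chr6:82774487-82774521, minus strand: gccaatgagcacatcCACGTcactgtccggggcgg
Pfkfb3, chr2:11553970-11554004, minus strand: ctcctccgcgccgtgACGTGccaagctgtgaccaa
Pgk1, chrX:106186954-106186988, plus strand: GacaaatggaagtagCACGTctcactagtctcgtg
Ldha, chr7:46845755-46845789, plus strand: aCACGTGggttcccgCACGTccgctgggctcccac
Bnip3, chr7:138909522-138909556, minus strand: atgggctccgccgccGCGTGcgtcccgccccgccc
Egln3, chr12:54204084-54204118, minus strand: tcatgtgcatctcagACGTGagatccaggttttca
Ankrd37, chr8:45999851-45999871, minus strand: tgtcagtgtttgggtACGTGa

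The core shown began 18 bases before the start for Car9, 6 for Ankrd37, 34 for Ldha, 35 for Bnip3, 52 for Hk2, 54 for Adm, 60 for Pfkfb3, 131 for Pgk1 and 229 for Egln3. Ldha and Bnip3 each held 5 matches and Ankrd37 held 4. Matches can overlap, since CACGTG reads as a core on both strands, as at the left of the Ldha window. A match describes the letters of the reference genome and says nothing about binding in these brains, which was not measured.

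Between 20871566 and 25524349 estimated counts were assigned to genes in a mouse, with overlap between all 3 groups. Levels are given as CPM, counts scaled to a common library size with edgeR's TMM factors. Yap1, the gene the transgene is made from, was between 20.0 and 22.3 CPM in controls and between 22.6 and 26.6 CPM in nlsYAP5SA mice, a log2 fold change of 0.23 (adjusted p = 0.0361, edgeR). Whether reads of the transgene were counted in Yap1 is not given in the sources used here. Y-linked genes summed to between 91.0 and 129 CPM in all 5 controls, and to 130 and 135 CPM in nlsYAP5SA replicates 3 and 4, while the other 3 nlsYAP5SA mice were below 1 CPM. In C57BL/6 replicates 1, 2 and 3 they summed to 119, 0 and 143 CPM. Y-linked expression and group were thus unequally matched. Mice above 1 CPM are called mice with Y-linked counts. Ttr, made by the choroid plexus, was at 217, 0.822, 1.25, 2.14 and 129 CPM in control replicates 1 to 5, at 258, 276, 138, 0.783 and 55.2 CPM in nlsYAP5SA replicates 1 to 5 and at 1.52, 158 and 239 CPM in C57BL/6 mice. The choroid plexus markers summed to 14 CPM in nlsYAP5SA replicate 4 and to 73.5 to 311 CPM in the other 4 nlsYAP5SA mice, against 11.5 to 237 CPM in controls. Microglia markers summed to 293 to 369 CPM in controls and to 418 to 562 CPM in nlsYAP5SA mice, with 7 of 8 genes called higher. Pericyte markers summed to 314 to 380 against 211 to 308 CPM, with 3 of 6 called lower. Endothelial markers summed to 144 to 162 against 129 to 156 CPM, with 2 of 8 called lower, and red blood cell markers to 272 to 594 against 206 to 388 CPM, with 0 of 5 called or at an unadjusted p of 0.05 (edgeR). Of the other lists, 0 of 8 neuron markers were called and 1 had an unadjusted p under 0.05 (edgeR), 3 of 8 astrocyte, 1 of 6 ependymal and 1 of 7 choroid plexus markers were called higher, and 1 of 8 oligodendrocyte and 2 of 5 oligodendrocyte precursor markers were called lower. At an unadjusted p of 0.05, which 24.4% of all genes passed, the counts were 7 of 8 for oligodendrocyte, 7 of 8 for microglia, 6 of 8 for astrocyte, 6 of 8 for endothelial, 3 of 6 for pericyte, 3 of 6 for ependymal, 3 of 5 for oligodendrocyte precursor and 2 of 7 for choroid plexus markers (edgeR). These counts take both directions together. Means were higher for 3 and lower for 5 endothelial markers, for 7 and 1 astrocyte, 1 and 5 pericyte, and 2 and 3 oligodendrocyte precursor markers. No listed marker was at 0 in all mice. The part of these cell types in the results below was not tested.

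Car9, which codes for a carbonic anhydrase at the cell surface that acidifies the space around the cell, was at a lower level than all 10 members in controls. Its level in control replicates 1 to 5 was 0.613, 0.509, 0.333, 0.252 and 0.567 CPM, from 6 to 15 counts. In nlsYAP5SA replicates 1 to 5 it was 8.14, 5.70, 4.68, 5.83 and 6.93 CPM, from 108 to 180 counts. Every nlsYAP5SA mouse was far above every control and every C57BL/6 mouse, the latter at 0.583, 0.911 and 0.283 CPM. The log2 fold change against control was 3.76 (SE 0.23, adjusted p = 1.02e-06, quasi-likelihood test of edgeR, adjusted after Benjamini-Hochberg over all genes tested), or 13.6-fold with a 95% interval of 9.65 to 19.1. It was 3.51 (adjusted p = 0.000372, same test) when only mice with Y-linked counts were compared. Car9 was known to be induced when the question was posed, so these values set the scale for the 10 members and are no independent result.

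The members did not change together with Car9. All 10 passed the filter on low counts, and 2 of 10, Hk2 and Ndrg1, were called higher in nlsYAP5SA than in control mice, with none called lower. Among all 16315 genes tested 10.8% were called, 7.36% higher and 3.44% lower. Of these calls 68.1% were higher, and 44.0% were with an ordinary loess offset for GC content and length, under which 18.6% of all genes and 5 members were called, Adm, Hk2 and Ndrg1 higher and Pgk1 and Ldha lower. With so short a list, a single gene is worth 10 percentage points, and the count is not read as a departure from that background. The median log2 fold change of the members was 0.011, against -0.005 for all genes tested, with 6 means higher and 4 lower. At an unadjusted p of 0.05 or less, 5 of 10 members passed (Adm, Hk2, Ndrg1, Pgk1 and Ankrd37), against 24.4% of all genes. The groups were separated without overlap for 1 member, Hk2, which was higher, against 10.1% of all genes (6.5% higher and 3.57% lower). The largest fold change of a member was that of Adm at 1.65 (95% interval 1.19 to 2.29), whose upper limit lies below the lower limit of 9.65 for Car9. Fold changes depend on the starting level, and an equal gain in CPM is a smaller fold change for a gene at a higher level. Mean CPM went from 0.455 to 6.25 for Car9, from 27.6 to 36.4 for Ndrg1 and from 5.71 to 8.81 for Hk2. It went from 42.8 to 42.1 for Vegfa, 1 of the 4 members with lower means. The plot of levels by mouse shows how little of the Car9 pattern recurs among the members.

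**Figure D1:**
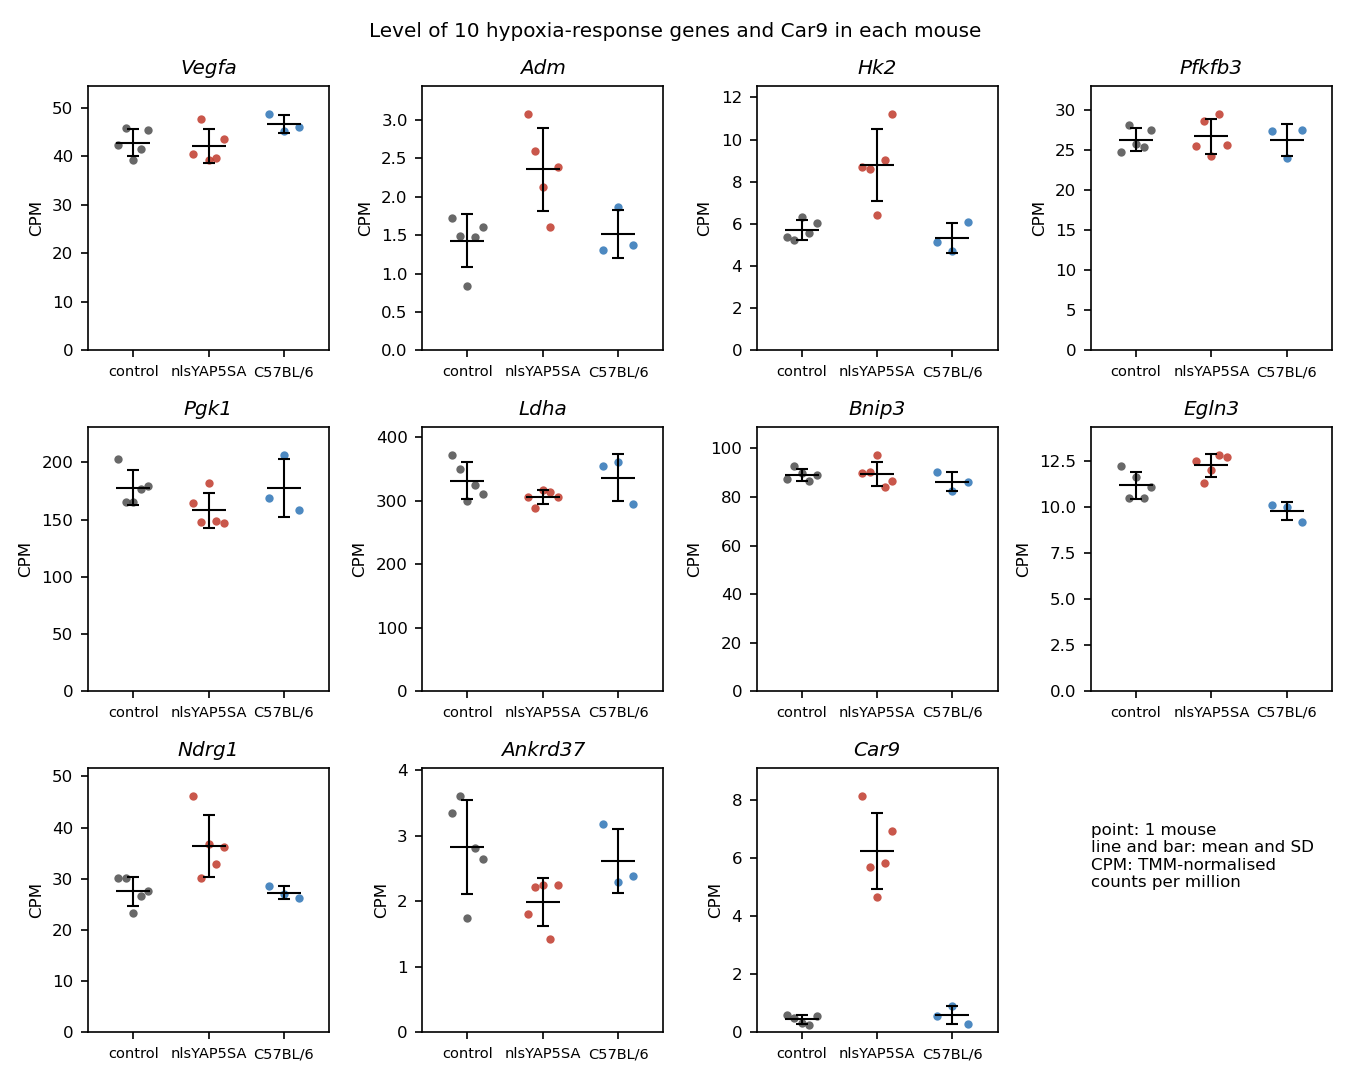
Level of each of the 10 hypoxia-response genes and of Car9 in each mouse, in TMM-normalised CPM on linear axes that start at 0; points are mice of the control (5), nlsYAP5SA (5) and C57BL/6 (3) groups, and the line and bars give the mean and SD. Car9 lay between 4.68 and 8.14 CPM in nlsYAP5SA mice and below 1 CPM elsewhere, whereas the members other than Hk2 overlapped between nlsYAP5SA and control mice.

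Among the glycolytic members, Hk2 rose. It codes for hexokinase 2, which commits glucose to the cell by phosphorylating it, and it is the inducible, mitochondria-associated form of an enzyme whose main brain form is Hk1. Hk2 measured 5.36, 5.25, 6.34, 5.58 and 6.05 CPM in control replicates 1 to 5. It measured 8.72, 8.62, 6.41, 9.04 and 11.2 CPM in nlsYAP5SA replicates 1 to 5. The groups did not overlap, although nlsYAP5SA replicate 3 lay only just above the highest control. The log2 fold change was 0.62 (SE 0.13, 95% interval 0.34 to 0.90, adjusted p = 0.00776, edgeR), or 1.54-fold. The call held in each of the 10 fits that left out 1 mouse. It was lost, out of 22 alternatives with adjusted p between 0.000398 and 0.288, when the level of Y-linked genes was a covariate (log2 fold change 0.45, adjusted p = 0.188, edgeR) and when only mice with Y-linked counts were compared (0.43, adjusted p = 0.288, edgeR). Its promoter window is the one printed above with a core 52 bases before the start.

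The other glycolytic members were not called. Pfkfb3, whose product makes the fructose bisphosphate that activates phosphofructokinase, lay between 24.8 and 28.2 CPM in controls and between 24.3 and 29.5 CPM in nlsYAP5SA mice, with a log2 fold change of 0.02 (95% interval -0.13 to 0.17, adjusted p = 0.902, edgeR). Ldha, which codes for the lactate dehydrogenase subunit favoured for making lactate, was at 371, 349, 299, 325 and 311 CPM in controls and at 305, 289, 317, 313 and 306 CPM in nlsYAP5SA mice. The nlsYAP5SA values of Ldha lay within or just below the range of the controls (log2 fold change -0.11, 95% interval -0.26 to 0.03, adjusted p = 0.309, edgeR). Pgk1, phosphoglycerate kinase, the first step of glycolysis that yields ATP, was at 203, 165, 165, 177 and 179 CPM in controls. In nlsYAP5SA mice it was at 164, 148, 182, 149 and 147 CPM, below every control in 4 of 5 mice. Its log2 fold change was -0.17 (95% interval -0.34 to -0.0048, adjusted p = 0.192, edgeR). A processed copy, Pgk1-rs7, took between 25.5% and 39.5% of the counts of the pair in a mouse. RSEM divides reads between such near-identical genes, so the level of Pgk1 is uncertain, and with both summed the log2 fold change was -0.15 (adjusted p = 0.183, edgeR).

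Of the secreted signals, Vegfa was not called. It codes for the vascular endothelial growth factor that directs vessel growth and permeability, and is the member most often measured as a sign of low oxygen. Its level was 42.2, 45.7, 39.3, 41.4 and 45.3 CPM in controls and 40.4, 47.7, 39.3, 39.7 and 43.6 CPM in nlsYAP5SA mice. The ranges nearly coincide. The fold change was 0.983 (95% interval 0.887 to 1.09, adjusted p = 0.868, edgeR), an interval that lies below that of Hk2, 1.27 to 1.87. The gene lies on the minus strand at chr17:46016993-46032369 (GRCm38, GENCODE M21).

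Adm, which codes for the vasodilator peptide adrenomedullin, was higher on average but did not pass the test. It was at 1.72, 1.49, 0.834, 1.47 and 1.61 CPM in controls, from 20 to 42 counts, and at 3.07, 2.59, 2.12, 1.61 and 2.39 CPM in nlsYAP5SA mice, from 37 to 68 counts. In 4 of 5 nlsYAP5SA mice it was above every control, and replicate 4 lay among them. The log2 fold change was 0.72 (SE 0.22, 95% interval 0.25 to 1.20, adjusted p = 0.0551, edgeR). The outcome turned on the settings, with a call in 6 of 22 alternatives and adjusted p between 0.0229 and 0.765. DESeq2's Wald test (adjusted p = 0.0229) and the fit without nlsYAP5SA replicate 4 (adjusted p = 0.0242, edgeR) were among these 6.

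Bnip3, which codes for a mitochondrial outer membrane protein that promotes removal of mitochondria by autophagy, had the lowest coefficient of variation of the 10 members among controls. It was 2.79% in controls, where it lay between 86.5 and 92.9 CPM, and 5.51% in nlsYAP5SA mice, where it lay between 84.0 and 97.1 CPM. The 95% interval of the fold change ran from 0.931 to 1.08 (adjusted p = 0.976, edgeR).

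Egln3 codes for prolyl hydroxylase 3, which marks HIF for destruction and is itself induced by HIF, closing a feedback loop. It was at 12.2, 10.5, 11.6, 10.5 and 11.1 CPM in controls and at 12.5, 11.3, 12, 12.8 and 12.7 CPM in nlsYAP5SA mice. The upper end of the nlsYAP5SA range was above the controls and the lower end within them (log2 fold change 0.13, 95% interval -0.03 to 0.29, adjusted p = 0.311, edgeR).

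Ndrg1, a stress-responsive gene whose loss in humans causes a demyelinating neuropathy, rose. It measured 30.1, 30.2, 23.3, 26.6 and 27.7 CPM in control replicates 1 to 5 and 46.1, 30.1, 36.8, 32.9 and 36.2 CPM in nlsYAP5SA replicates 1 to 5. In 4 of 5 nlsYAP5SA mice it was above every control, and replicate 2 lay level with the highest ones. The log2 fold change was 0.40 (SE 0.11, 95% interval 0.16 to 0.63, adjusted p = 0.0345, edgeR), or 1.32-fold. Ndrg1 lies on the minus strand at chr15:66929318-66969640 (GRCm38, GENCODE M21). This call was near the threshold. It held in 12 of 22 alternatives, with adjusted p between 0.00773 and 0.338, and was lost without control replicate 3, 4 or 5 (adjusted p = 0.0647, 0.0788 and 0.0681, edgeR) and without nlsYAP5SA replicate 1, 3 or 5 (adjusted p = 0.0639, 0.0603 and 0.0737, edgeR). Among mice with Y-linked counts the log2 fold change was 0.33 (adjusted p = 0.262, edgeR). Since oligodendrocytes express Ndrg1, the oligodendrocyte marker sum is set beside it: 2090 to 3500 CPM in controls and 1340 to 2880 CPM in nlsYAP5SA mice, with all 8 means lower in the latter, 7 of 8 at an unadjusted p under 0.05 and 1 of 8 called (edgeR); its part was not tested.

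Ankrd37, which codes for an ankyrin repeat protein of little-known function, had a lower mean in nlsYAP5SA mice. It was at 3.35, 3.60, 1.75, 2.81 and 2.65 CPM in controls and at 1.81, 2.21, 2.25, 1.43 and 2.25 CPM in nlsYAP5SA mice. Control replicate 3 lay among the nlsYAP5SA mice and the other 4 controls above all of them. The log2 fold change was -0.51 (SE 0.20, 95% interval -0.96 to -0.07, adjusted p = 0.14, edgeR), with a call in 1 of 22 alternatives, the fit without control replicate 3 (-0.65, adjusted p = 0.0339, edgeR, the lowest in a range that reached 0.542). Ankrd37 holds 4 core matches in its promoter window and Vegfa none, and neither was called.

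The heat map of each mouse against the control mean sets out how members varied within a group. Control replicate 3 was the lowest control for 6 of 10 members, and control replicates 1 and 2 were the highest for 4 and 5. In nlsYAP5SA mice, replicate 3 was highest for 4 members and lowest for 3, and no nlsYAP5SA mouse was highest for more than 4 of the 10. The values are log2(CPM + 0.5) minus the mean of log2(CPM + 0.5) over controls. The added 0.5 CPM makes differences smaller for genes at low levels, such as Adm and Ankrd37. On this scale Adm was raised most in replicate 1 (0.92), Hk2 in replicate 5 (0.92) and Ndrg1 in replicate 1 (0.74), and sizes are not compared between genes.

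**Figure D2:**
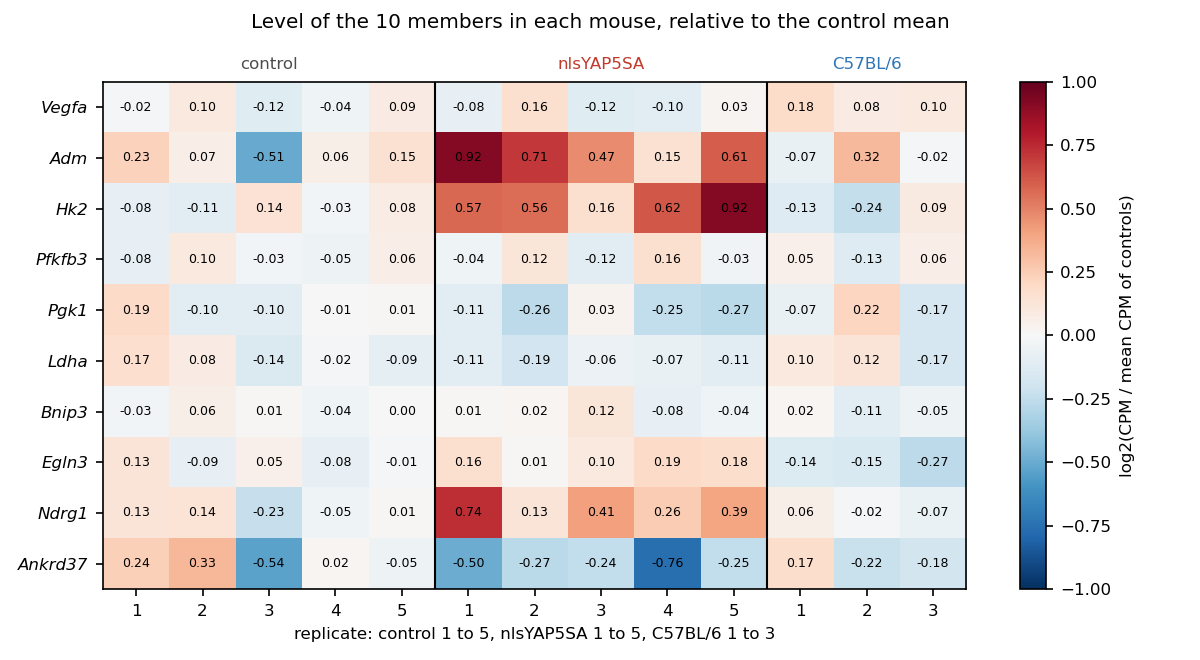
Level of the 10 members in each mouse as log2(CPM + 0.5) minus the mean of log2(CPM + 0.5) over the 5 controls, with 1 row per gene and 1 column per mouse. The label of the colour bar leaves out the added 0.5 CPM, which makes differences smaller for genes at low levels. Red is higher, blue lower, and each cell prints its value. Adm, Hk2 and Ndrg1 are red across the nlsYAP5SA columns (0.13 to 0.92), Ankrd37 is blue in them (-0.24 to -0.76), and Vegfa, Pfkfb3 and Bnip3 stay between -0.12 and 0.16 in them.

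Levels of different genes can be compared only per length, as CPM per kb of exon. In controls Ldha (99.9 ± 8.77 CPM per kb, SD, n = 5) and Pgk1 (79.4 ± 6.89) were the most abundant members. Bnip3 (39.4 ± 1.10) and Vegfa (9.99 ± 0.64) followed. Egln3 (4.20 ± 0.28) and Ndrg1 (4.18 ± 0.43) did not differ beyond their spread, and Pfkfb3 (3.48 ± 0.19) lay below them. Ankrd37 (1.84 ± 0.47) came next, and Hk2 (0.957 ± 0.078) and Adm (0.879 ± 0.213) were lowest and within their spread of each other. Car9 was at 0.197 ± 0.067 CPM per kb in controls and at 2.71 ± 0.57 in nlsYAP5SA mice (SD, n = 5). In nlsYAP5SA mice it thus stood between Pfkfb3 (3.54 ± 0.30) and Hk2 (1.48 ± 0.29), far below Ldha (92.5 ± 3.29) and Pgk1 (70.5 ± 6.68).

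The genes that make and regulate HIF were read next, from a list of 9 that were all tested. Hif1a and Epas1 code for its alpha subunits, Arnt for the beta subunit and Vhl for the von Hippel-Lindau protein. Hif1a lay between 88.5 and 123 CPM in controls and between 104 and 128 CPM in nlsYAP5SA mice (log2 fold change 0.09, adjusted p = 0.587, edgeR). Epas1 had a log2 fold change of 0.05 (adjusted p = 0.845), Arnt of 0.05 (adjusted p = 0.79) and Vhl of -0.14 (adjusted p = 0.153), all from edgeR. Their intervals reached from 0.933 to 1.21-fold for Hif1a, from 0.862 to 1.25-fold for Epas1, from 0.894 to 1.20-fold for Arnt and from 0.832 to 0.989-fold for Vhl. Arnt2, a second beta subunit named here after its values were seen, stood at 31.9 ± 1.64 CPM per kb in controls against 2.38 for Arnt. It lay between 223 and 254 CPM in controls and between 258 and 284 CPM in nlsYAP5SA mice, without overlap, and was not called (log2 fold change 0.13, 95% interval 0.03 to 0.24, adjusted p = 0.113, edgeR). It was the one gene of the 9 without overlap, where 10.1% of all genes were (6.5% higher). An unadjusted p under 0.05 (edgeR) was found for 4 of 9 (Hif3a, Arnt2, Egln2 and Vhl), against 24.4% of all genes.

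In this list 1 of 9 genes was called (11.1%, against 10.8% of all genes), Hif3a, an alpha subunit that can act against the other forms. It was at 2.78, 2.54, 3.29, 2.48 and 2.13 CPM in controls and at 10.2, 9.84, 10.2, 3.26 and 8.43 CPM in nlsYAP5SA mice. Replicate 4 stood near the highest control and the other 4 mice well above it. This is also the nlsYAP5SA mouse with the lowest Ttr and choroid plexus sum. Control replicates 1 and 5, with Ttr at 217 and 129 CPM, had 2.78 and 2.13 CPM of Hif3a. With Ttr as a covariate the log2 fold change of Hif3a was 1.37 (adjusted p = 0.00794, edgeR). The log2 fold change was 1.66 (SE 0.26, adjusted p = 0.00132, edgeR), and 1.34 (adjusted p = 0.112, edgeR) among mice with Y-linked counts, where replicate 4 is 1 of only 2 nlsYAP5SA mice. The call was lost in that alternative alone of 22, and without replicate 4 the adjusted p was 4.69e-06 (edgeR).

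A longer list of 31 other HIF targets was compared in the same fit. Epo, the classical kidney and liver target, did not pass the filter, and of the 30 tested 8 were called higher and 2 lower, 33.3% against 10.8% of all genes. The list was chosen with earlier results of these data known, and its median log2 fold change was 0.073, with 16 means higher and 14 lower. Of the genes with the lowest p values, 3 are described here, which are secreted or modify collagen. Lox, lysyl oxidase, which cross-links collagen, had a log2 fold change of 2.89 (adjusted p = 2.39e-06). Stc2, a secreted stanniocalcin, had one of 1.51 (adjusted p = 6.39e-05), and Plod2, which hydroxylates collagen lysines, had one of 0.59 (adjusted p = 0.00278). All 3 were separated from controls without overlap, and these p values are from edgeR. Of the 30 genes tested in this list, 6 were without overlap and higher and 1 lower, against 6.5% and 3.57% of all genes.

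Lox was at 3.84, 5.64, 7.13, 6.93 and 6.75 CPM in controls and at 49.9, 58.3, 29.9, 37.7 and 49.0 CPM in nlsYAP5SA mice. Stc2 was between 2.06 and 3.17 CPM in controls and between 4.96 and 8.57 CPM in nlsYAP5SA mice. Both genes, like Car9, were higher in every nlsYAP5SA mouse than in any control, and both stayed called in all 22 alternatives.

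A further 6 calls in this list were picked for mention after their values were seen. Hmox1, heme oxygenase 1, rose by a log2 fold change of 0.86 (adjusted p = 0.00612), Slc2a1, the glucose transporter GLUT1 of endothelium and glia, by 0.67 (adjusted p = 0.0109), Slc16a3, the lactate exporter MCT4, by 0.55 (adjusted p = 0.0233) and Kdm3a, a histone demethylase, by 0.37 (adjusted p = 0.0114). Slc2a1 was at 73.0, 69.9, 66.8, 39.8 and 83.9 CPM in nlsYAP5SA mice against 38.6 to 44.0 CPM in controls, so replicate 4, the one with little Ttr, again stood with the controls. Control replicates 1 and 5, with Ttr at 217 and 129 CPM, had 44.0 and 43.7 CPM of Slc2a1. With Ttr as a covariate the log2 fold change of Slc2a1 was 0.51 (adjusted p = 0.0329, edgeR). The part of the choroid plexus was not tested. Ak4, a mitochondrial adenylate kinase, fell by 0.38 on the log2 scale (adjusted p = 0.0156) and Higd1a, a mitochondrial inner membrane protein, fell by 0.19 (adjusted p = 0.0459), all from edgeR. Higd1a was called in 7 of 22 alternatives, with adjusted p between 0.00165 and 0.626, Slc16a3 in 16 and Slc2a1, Kdm3a and Ak4 in 20 each. Widely used hypoxia targets in the same list did not pass the test, among them Pdk1 (log2 fold change -0.08), P4ha1 (-0.0024), Ddit4 (-0.0003), Bhlhe40 (-0.02) and Hilpda (-0.19), also picked after their values were seen. Among mice with Y-linked counts 4 of the listed genes were called, all higher, Lox, Stc2 and Hmox1 among them, where 1.97% of all genes were. With the Y-linked covariate 3 were called, where 3.32% of all genes were, Lox and Stc2 among them. Plod2, Slc2a1, Slc16a3, Kdm3a, Ak4 and Higd1a were called in neither fit, with adjusted p between 0.0667 and 0.626 (edgeR).

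**Figure D3:**
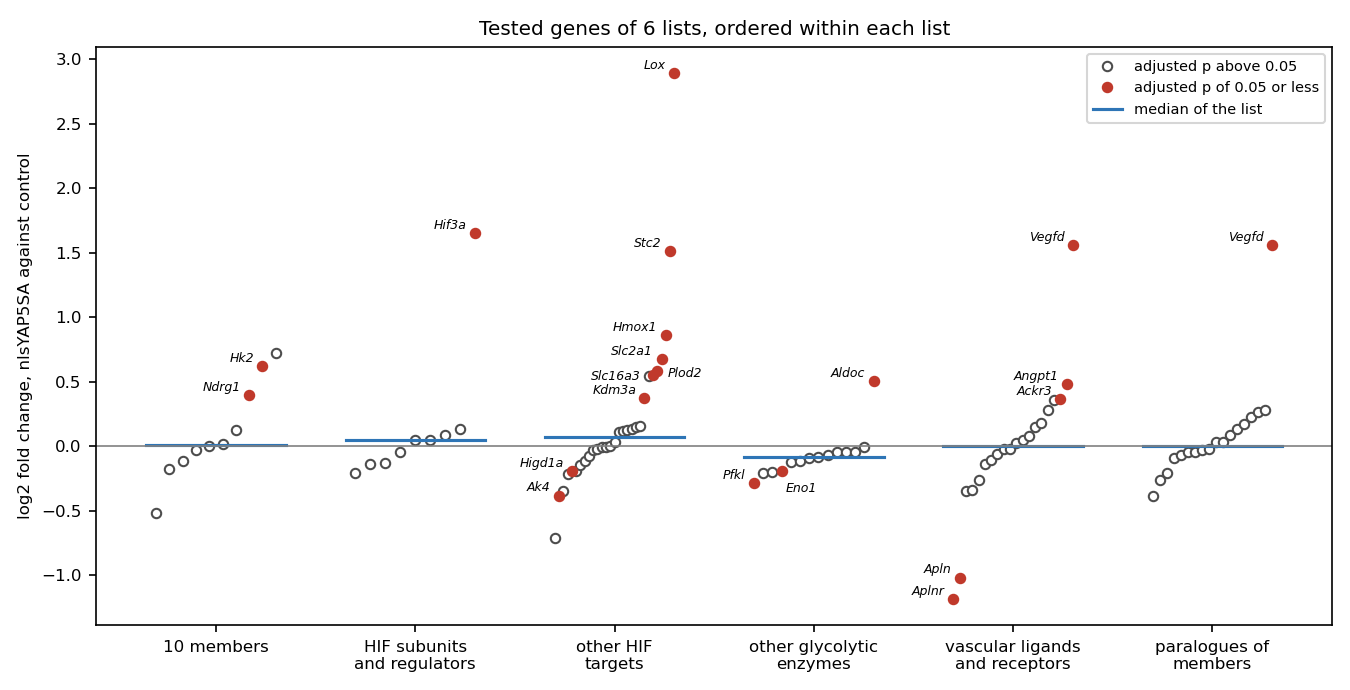
Log2 fold change of nlsYAP5SA against control mice for the tested genes of 6 lists, 1 of the other HIF targets not being shown, ordered within each list; red points passed an adjusted p of 0.05 and are named, open points did not, and the blue line is the median of the list. The medians lie between -0.085 and 0.073, and in the list of other HIF targets the called genes reach from -0.38 to 2.89.

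Most enzymes of glycolysis outside the members had lower means. Of 14 tested, 13 were lower on average in nlsYAP5SA mice; the median log2 fold change was -0.085 against -0.005 for all genes, and 1 was called higher and 2 lower (21.4%, against 10.8% of all genes). Of the neuron markers 6 of 8 means were lower too (median log2 fold change -0.062), with sums of 5310 to 5510 CPM in controls and 4910 to 5350 CPM in nlsYAP5SA mice, and all 8 oligodendrocyte markers had lower means (median -0.592). Their part was not tested. Pfkl, a phosphofructokinase subunit, fell by 0.28 on the log2 scale (adjusted p = 0.00759, edgeR), from 69.3 to 82.6 CPM in controls to 57.3 to 66.0 CPM in nlsYAP5SA mice. Eno1, the enolase of most tissues, fell by 0.19 (adjusted p = 0.032, edgeR), but it shares reads with the near-identical Eno1b, and with both summed the change of -0.18 was not called (adjusted p = 0.0665, edgeR). Aldoc, the aldolase of astrocytes, rose by a log2 fold change of 0.51 (adjusted p = 0.0428, edgeR), with nlsYAP5SA replicate 4 at 287 CPM below all controls and the other 4 at 471 to 559 CPM. With Ttr as a covariate Aldoc was not called (0.33, adjusted p = 0.138, edgeR). It stayed called in 8 of 22 alternatives, Eno1 in 10 of 23 and Pfkl in 20 of 22. All 3 lost their call with the Y-linked covariate and among mice with Y-linked counts. The adjusted p values from edgeR were 0.154 and 0.296 for Pfkl, 0.273 and 0.453 for Eno1 and 0.498 and 0.675 for Aldoc. Of the astrocyte markers 3 of 8 were called higher, and their sum was 3110 to 5580 CPM in controls and 4990 to 6820 CPM in nlsYAP5SA mice. In nlsYAP5SA replicate 4, where Aldoc was below all controls, this sum was 4990 CPM, within the range of the controls. The part of astrocytes was not tested.

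Ligands and receptors that act with Vegfa and Adm on vessels moved in both directions. Of 21 listed 20 were tested, with 3 called higher, 2 lower (25% in all, against 10.8% of all genes) and a median log2 fold change of 0.006. Vegfd, a growth factor of lymphatic vessels, rose by 1.56 (adjusted p = 0.000633) and Angpt1, which steadies vessels through the receptor Tek, by 0.48 (adjusted p = 0.00336). Apln, the ligand apelin, fell by 1.02 (adjusted p = 6.39e-05) and its receptor Aplnr fell by 1.18 (adjusted p = 0.0101), all in log2 and from edgeR. Apln was between 27.0 and 31.9 CPM in controls and between 11.6 and 17.8 CPM in nlsYAP5SA mice. Aplnr was between 18.6 and 19.6 CPM in controls and at 4.07, 8.66, 5.85, 15.3 and 8.20 CPM in nlsYAP5SA mice, with replicate 4 nearest the controls. Vegfd was between 1.23 and 1.76 CPM in controls, at 2.22 CPM in nlsYAP5SA replicate 4 and between 4.52 and 5.56 CPM in the other 4 nlsYAP5SA mice. The third gene called higher, picked after its values were seen, was Ackr3, a scavenging receptor that binds adrenomedullin, with a log2 fold change of 0.37 (adjusted p = 0.0156, edgeR). The Vegfa receptors Flt1 (log2 fold change -0.02) and Kdr (-0.06) and the adrenomedullin receptor Calcrl (0.08) were not called and are likewise named after the fact. With the Y-linked covariate and among mice with Y-linked counts, edgeR no longer called Aplnr (adjusted p = 0.224 and 0.238), Angpt1 (0.0619 and 0.189) or Ackr3 (0.233 and 0.275), Vegfd was called in the first fit alone (0.0194 and 0.076), and Apln was called in both (0.00369 and 0.00492). Endothelial and pericyte marker sums are given above, and their part was not tested.

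Among 21 paralogues of the members, 18 were tested and 1 was called, Vegfd, which is 5.56% of those tested against 10.8% of all genes. The main brain hexokinase Hk1 had a fold change of 0.971 (95% interval 0.898 to 1.05, adjusted p = 0.672, edgeR) beside the rise of Hk2. For Bnip3l, Egln1 and Ndrg2, close relatives of Bnip3, Egln3 and Ndrg1, the fold changes were 1.10, 0.970 and 1.13 with adjusted p of 0.20, 0.618 and 0.336 from edgeR. The choice of these paralogues came after their values were known.

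The 3 C57BL/6 mice gave a second set of mice without active transgene. Against control 0 of 10 members were called, where 0.169% of 16546 genes were called (0.0484% higher and 0.121% lower), and 0 members passed an unadjusted p of 0.05 in edgeR where 3.78% of genes did. DESeq2's Wald test also called 0 and had 0 at that p. Egln3 was the one member without overlap, at 9.21 to 10.1 CPM in the C57BL/6 mice, all below the controls (log2 fold change -0.19, 95% interval -0.39 to 0.0055, adjusted p = 1, edgeR). In this comparison 3.34% of all genes were without overlap, 1.95% higher and 1.39% lower. Log2 fold changes of the others ran from -0.11 for Ankrd37 to 0.12 for Vegfa, and Car9 had one of 0.36 with a wide interval of -0.59 to 1.3 (adjusted p = 1, edgeR). With 3 mice against 5 the interval of Adm reached from 0.717 to 1.57-fold.

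Against C57BL/6 the nlsYAP5SA mice had 1 of 10 members called, Hk2, where 6.38% of 16641 genes were called, 4.16% higher and 2.22% lower. Of these calls 65.2% were higher, and 47.3% were with the ordinary loess offset. This comparison shares its nlsYAP5SA mice with the one against control, so its values are set beside the others and are no second experiment. Hk2 was at 5.16, 4.74 and 6.10 CPM in C57BL/6 mice, below every nlsYAP5SA mouse, with a log2 fold change of 0.71 (95% interval 0.32 to 1.09, adjusted p = 0.0425, edgeR). That call held in 10 of 20 alternatives, with adjusted p between 0.0049 and 0.833, and of the 8 fits that left out 1 mouse it held in 2, without nlsYAP5SA replicate 3 and without C57BL/6 replicate 3. Ndrg1, at 28.6, 27.1 and 26.2 CPM in C57BL/6 mice, had a log2 fold change of 0.40 (adjusted p = 0.0902, edgeR) and Egln3 one of 0.31 (adjusted p = 0.0657, edgeR). Both were without overlap and higher in nlsYAP5SA mice, as 8.71% of all genes were. Ankrd37, at 3.18, 2.30 and 2.38 CPM in C57BL/6 mice, was without overlap and lower, as 6.47% of all genes were, with a log2 fold change of -0.41 (adjusted p = 0.28, edgeR). Car9 had one of 3.40 (adjusted p = 0.000388, edgeR), called in 18 of 19 alternatives. Of the other HIF targets 6 were called higher and 1 lower of 30 in this comparison, and 0 of 30 between C57BL/6 and control mice, where edgeR and DESeq2 each had 1 gene at an unadjusted p of 0.05. Hif3a had a log2 fold change of 1.65 (adjusted p = 0.0206, edgeR), called in 16 of 20 alternatives with adjusted p between 1.57e-05 and 0.523.

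**Figure D4:**
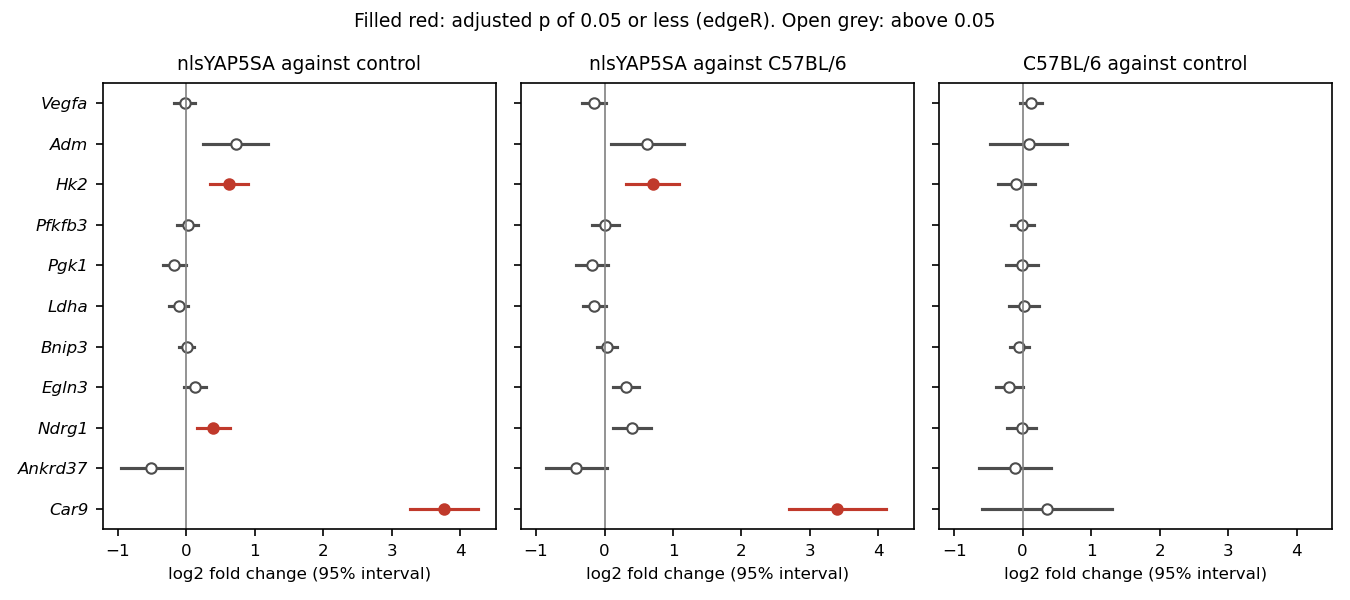
Log2 fold change with its 95% interval for the 10 members and Car9 in the 3 comparisons (edgeR); filled red points have an adjusted p of 0.05 or less and open grey points do not. Car9 stands at 3.76 and 3.40 in the comparisons with nlsYAP5SA mice, Hk2 is red in both of them and Ndrg1 in the one against control, and all intervals of C57BL/6 against control cross 0.

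Eno1 differed between C57BL/6 and control mice, by a log2 fold change of 0.88 (adjusted p = 0.000827, edgeR), while Eno1b was lower in C57BL/6 mice by a log2 fold change of -6.47. With their counts summed the difference was 0.27 (adjusted p = 0.906, edgeR). Between these groups, neither of which has an active transgene, all 14 glycolytic enzymes outside the members had higher means in C57BL/6 mice. Their median log2 fold change was 0.106 against 0.002 for all genes, a larger shift than the -0.085 of nlsYAP5SA against control mice. In the same comparison all 8 oligodendrocyte markers (median log2 fold change 0.382) and all 7 choroid plexus markers (0.43) had higher means in C57BL/6 mice, with 0 called or at an unadjusted p under 0.05 (edgeR), and their part was not tested. Eno1 was the one called between C57BL/6 and control mice, and the call is not kept when the pair is summed.

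Mice of both sexes were used, the labels give no sex for any mouse, and the imbalance in Y-linked counts touches each comparison with nlsYAP5SA mice above. Among the 5 controls and the 2 nlsYAP5SA mice with Y-linked counts, 0 of 10 members were called by edgeR and 2 had an unadjusted p under 0.05. Of the 16918 genes tested in these mice 334 were called (1.97%) and 1807 had an unadjusted p under 0.05. Log2 fold changes were 0.43 for Hk2, 0.33 for Ndrg1, 0.39 for Adm, -0.63 for Ankrd37 and -0.12 for Vegfa, the directions being those of the full groups. DESeq2 was not run on these mice, and the group of 2 limits the test. The 3 nlsYAP5SA mice with Y-linked sums below 1 CPM had no control of that kind, and the one such mouse without active transgene was C57BL/6 replicate 2. That mouse had 4.74 CPM of Hk2, 27.1 CPM of Ndrg1 and 0.911 CPM of Car9, and as a single mouse it allows no test of its own.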

How the data were processed

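Libraries from 13 mice were prepared with an mRNA kit and sequenced on an Illumina instrument. Controls and nlsYAP5SA mice came from 2 matings, to which the labels do not assign them. The authors trimmed reads with cutadapt, aligned them with STAR to GRCm38 through RSEM 1.3.0 and deposited 1 table of estimated counts per gene, with no normalization; between 12.38% and 13.31% of the values in a mouse are not whole. The strand setting is not given in the sources used here. The authors' own tests used DESeq2, and their results were not used.

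Here the estimated counts were rounded, normalized with TMM, filtered with filterByExpr (minimum count 10, minimum total 15) and tested between the 2 groups compared with edgeR's quasi-likelihood test (edgeR 4.0.16, R 4.3.3), two-sided. A gene was called where its p, adjusted after Benjamini-Hochberg over all genes tested, was 0.05 or less. The 95% intervals of log2 fold changes come from the same fit. Symbols matched 48349 of 48795 identifiers, and positions come from GENCODE M21. No pair of replicates looked like 1 library entered again, the lowest chi-square per degree of freedom being 6.22. The test was tried on simulated counts with known changes. Intervals and p values treat each mouse as 1 replicate, and counts are reads, not molecules.

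The 10 members and the lists of genes were chosen with earlier results of these data known. Named genes are the members, Car9, Hif1a, Epas1, Arnt, Vhl, Yap1, Ttr, the Y-linked genes and, in each other list that is not of a cell type, the 4 called genes with the lowest p; others are said to be picked after their values were seen. The result of 1 gene among the other HIF targets is not reported here, although the counts and medians of that list include it. Alternatives were other size factors, filters, DESeq2 1.42.0, all 13 mice in 1 fit, a replicate block, covariates for Y-linked genes and Ttr, GC and length offsets, and leaving out each mouse. Sums of Pgk1 with Pgk1-rs7 and of Eno1 with Eno1b, and a fit on mice with Y-linked counts, were added after the data were seen.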

Additional observations from a re-analysis of the deposited data

Results flagged for a closer look

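In each group of 5 mice, the highest and the lowest value of each member and named gene were compared with the rest by Dixon's rule, and 2 of 72 groups of values passed its critical value of 0.71. Chance flags about 1 in 20 groups. Adm in control replicate 3 was 0.834 CPM, and the other 4 controls lay between 1.47 and 1.72 CPM. Hif3a in nlsYAP5SA replicate 4 was 3.26 CPM, with the other nlsYAP5SA mice between 8.43 and 10.2 CPM. The groups of 3 C57BL/6 mice were not examined in this way.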

How the results depend on the processing

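No call on a member, Car9 or a named gene of the other lists changed its direction in any alternative. Yap1, Ttr and the Y-linked genes were not followed through the alternatives. Of the members, none was called between C57BL/6 and control mice under any alternative. For nlsYAP5SA against control, 1 member was called with library size alone and with Ttr as a covariate, 0 with the Y-linked covariate and among mice with Y-linked counts, and 5 (3 higher, 2 lower, the latter Pgk1 and Ldha) with the ordinary loess offset for GC and length. Genes called numbered 542 and 334 under the Y-linked covariate and subset and 3029 with the ordinary loess offset, where 44.0% of calls were higher against 68.1% as reported, 61.9% of 2481 with the robust loess, 87.8% with the covariate and 92.2% in the subset. Other HIF targets called numbered 3 and 4 under the covariate and subset. Leaving out 1 mouse gave 1210 to 1891 genes, 1 to 3 members and 8 to 10 other targets, with 1 member (Hk2) without control replicate 4 or 5 or nlsYAP5SA replicate 1, 3 or 5. For nlsYAP5SA against C57BL/6, DESeq2 called 1596 genes and 3 members, and all 13 mice in 1 fit called 3 members. The Y-linked covariate called 0 members and 4 other targets, Ttr 0 members, the ordinary and robust loess offsets 1916 and 1689 genes with 2 members each, and the Y-linked subset 47 genes, 0 members and 1 other target. Leaving out 1 mouse gave 401 to 1757 genes, 0 or 1 member and 2 to 8 other targets. The genes numbered 401, 581 and 1757 without C57BL/6 replicate 1, 2 or 3, and 636, 645 and 509 without nlsYAP5SA replicate 1, 2 or 5. Other targets numbered 2 and 3 without C57BL/6 replicate 1 or 2 and 3 without nlsYAP5SA replicate 2 or 5. For C57BL/6 against control, genes called numbered 16 with 10 counts required in every mouse, 59 with DESeq2, 44 with all 13 mice, and 19 to 27 when 1 mouse was left out. The causes of these shifts were not tested.

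The replicate numbers did not pair control and nlsYAP5SA mice as a set: same-numbered mice had correlations of their deviations from the group means of between -0.315 and 0.312. Between C57BL/6 and control mice the correlations were 0.12, -0.0231 and 0.486 for numbers 1, 2 and 3, and numbers 1 and 3 matched best with themselves. Between nlsYAP5SA and C57BL/6 mice they were 0.0731, -0.151 and -0.275. With the number as a replicate block, 1239 genes, the same 2 members and 9 other HIF targets were called for nlsYAP5SA against control, 15 genes for C57BL/6 against control, and 26 genes, 0 members and 0 other targets for nlsYAP5SA against C57BL/6, where the block leaves 3 pairs. Adm rests on 20 to 42 counts and Car9 on 6 to 15 counts in a control mouse, which limits the precision of both.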
